A study of Arabidopsis thaliana with 12 samples.

Results

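The genotype by light interaction asks, gene by gene, whether losing ATRX changed expression by the same factor under both light levels. It was taken as the atrx-2 to Col-0 difference under low light minus the same difference under normal light, on the log2 scale, so a positive value means that atrx-2 stood relatively higher under low light. All 12 libraries of the series entered it, and 20783 of 33602 loci passed the filter on low counts and were tested. The plants were whole Arabidopsis thaliana seedlings aged 10 days, either wild type Col-0 or carrying the atrx-2 allele, in long days of 16 h light at 21 °C. Normal light was 130 µmol and low light 30 µmol per second and square metre, with 3 libraries for each of the 4 groups. The labels name 1 atrx mutant allele only. Total RNA was read as single reads of 50 bases on 1 flow cell. Nothing in the labels says that replicates came from separate cultures, so every p below reflects only how far these libraries scatter, part or all of which may be technical.

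ATRX is a chromatin remodeller that helps to place the histone variant H3.3. The 1 gene called for the interaction, and with it 6 of the 12 positive interactions with the smallest p, are iron-responsive genes. Of the 6, 2 are on the iron homeostasis list used here, which was chosen with earlier results of these data known. The other 4 were put among iron-responsive genes after their values were seen. In the response to iron deficiency, basic helix-loop-helix (bHLH) factors of subgroup Ib, BHLH38, BHLH39, BHLH100 and BHLH101, are made when iron runs short and pair with the root factor FIT to switch on the iron importer IRT1 and the ferric reductase FRO2. Short IRON MAN peptides signal low iron from shoot to root and restrain BRUTUS (BTS), a ubiquitin ligase that limits the response. Much of a seedling's iron goes into chloroplasts, where photosynthesis uses it.

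The promoters of the 4 subgroup Ib genes are shown because these genes had positive interaction values together. Each run covers 250 bases before and 50 after the annotated start in RefSeq's TAIR10.1 assembly, 5′ to 3′ on the gene's minus strand. The windows are chr3:21085196-21085495 for BHLH38, chr3:21087661-21087960 for BHLH39, chr2:17199405-17199704 for BHLH100 and chr5:1139584-1139883 for BHLH101. Capitals mark a match, on either strand, to the G-box CACGTG or the heat shock element core GAANNTTC.
BHLH38: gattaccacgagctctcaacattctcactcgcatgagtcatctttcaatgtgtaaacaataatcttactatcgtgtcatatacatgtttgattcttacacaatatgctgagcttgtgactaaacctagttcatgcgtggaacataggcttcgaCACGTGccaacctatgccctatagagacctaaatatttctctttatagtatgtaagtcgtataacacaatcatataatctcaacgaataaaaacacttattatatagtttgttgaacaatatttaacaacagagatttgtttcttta
BHLH39: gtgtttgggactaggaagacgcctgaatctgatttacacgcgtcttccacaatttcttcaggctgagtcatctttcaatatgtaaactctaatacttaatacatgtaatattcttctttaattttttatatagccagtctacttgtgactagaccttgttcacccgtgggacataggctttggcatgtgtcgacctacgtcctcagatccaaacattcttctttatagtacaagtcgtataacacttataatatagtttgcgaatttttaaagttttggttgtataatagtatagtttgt
BHLH100: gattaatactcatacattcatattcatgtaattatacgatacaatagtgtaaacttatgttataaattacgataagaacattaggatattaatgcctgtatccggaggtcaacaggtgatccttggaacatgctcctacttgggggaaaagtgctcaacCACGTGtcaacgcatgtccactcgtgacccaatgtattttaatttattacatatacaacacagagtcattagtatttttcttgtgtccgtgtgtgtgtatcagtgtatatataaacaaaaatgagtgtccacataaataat
BHLH101: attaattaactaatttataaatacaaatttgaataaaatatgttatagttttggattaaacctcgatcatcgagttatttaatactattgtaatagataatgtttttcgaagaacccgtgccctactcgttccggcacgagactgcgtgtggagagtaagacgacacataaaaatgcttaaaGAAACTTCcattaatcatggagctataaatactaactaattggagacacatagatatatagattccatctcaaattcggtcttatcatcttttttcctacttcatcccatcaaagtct
BHLH38 holds a G-box 97 bases and BHLH100 one 91 bases before the start, while BHLH101 holds a heat shock element core 68 bases before it. Of all 37897 promoters of this length, 6.462% hold the G-box and 11.405% the heat shock element core. The evening element AAATATCT, present in 5.077% of promoters, is in none of the 4 windows. Of the 24 genes with the smallest interaction p among those reaching 1 CPM, 12 in each direction, 23 had a promoter: 4 held a G-box, 4 an evening element and 0 the heat shock element core. These matches describe letters in a window, not binding.

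Totals lay between 13733302 and 23899191 estimated counts per library, and the spread between replicates, as edgeR's common biological coefficient of variation, was 10.4%. Ribosomal RNA took between 3.73% and 8.67% of counts under normal light, most in atrx-2 library 3, and between 9.81% and 16.7% under low light. Antenna, Rubisco and root marker genes were detected in all groups, as whole seedlings would give, while the 11 seed storage markers summed to under 1 CPM (counts scaled to library size) in every library. The pollen and anther markers were low, and their sum was higher in atrx-2: the 7 genes summed to 1.01 to 1.62 CPM in wild type and 2.85 to 4.95 CPM in atrx-2 over both light levels. The GRP genes of this set carried the difference. GRP17, for example, had 1 count under normal and 8 under low light in Col-0, against 22 and 21 in atrx-2. The other markers were near 0 in both genotypes: A9 had 0 counts in every group, VGD1 at most 1 and MS2 at most 4. In bulk seedlings, fewer cells of a type and less RNA per cell cannot be told apart.

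BHLH38 was the 1 gene of 20783 (0.00481%) called for the interaction, at an adjusted p under 0.05 by edgeR's quasi-likelihood test with Benjamini-Hochberg adjustment. It lies on chromosome 3 from 21084035 to 21085245 (locus AT3G56970) and overlaps AT3G56960 on the opposite strand; strand use in the counting is not given in the sources used here. Under normal light it stood at 8.00, 9.74 and 10.05 CPM in Col-0 and at 5.28, 6.11 and 4.85 CPM in atrx-2, with library sizes adjusted by TMM. Under low light it stood at 1.23, 0.461 and 1.53 CPM in Col-0 and at 3.59, 3.85 and 3.13 CPM in atrx-2. All atrx-2 libraries were below all Col-0 libraries under normal light and above all of them under low light. The interaction was log2 2.51 ± 0.33 SE (95% interval 1.79 to 3.22, adjusted p = 0.0461), a 5.68-fold difference between the 2 genotype ratios.

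Seen as a light response, BHLH38 fell 8.77-fold from normal to low light in Col-0 (log2 -3.13, adjusted p = 3.36e-07) and 1.54-fold in atrx-2 (log2 -0.63, adjusted p = 0.0317). Under low light atrx-2 was 3.32-fold above Col-0 (log2 1.73, adjusted p = 0.0237), and under normal light the log2 difference was -0.78 (adjusted p = 0.241). The low-light wild-type values rest on 22, 7 and 18 counts. The interaction had the same direction in all 24 alternatives tried but missed the threshold in 14, among them the omission of any of 9 single libraries: every one except atrx-2 library 1 under normal light and Col-0 libraries 2 and 3 under low light. Over the omissions of 1 library, the log2 value ran from 2.14 to 2.77 and the adjusted p from 0.0333 to 0.249.

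**Figure D1:**
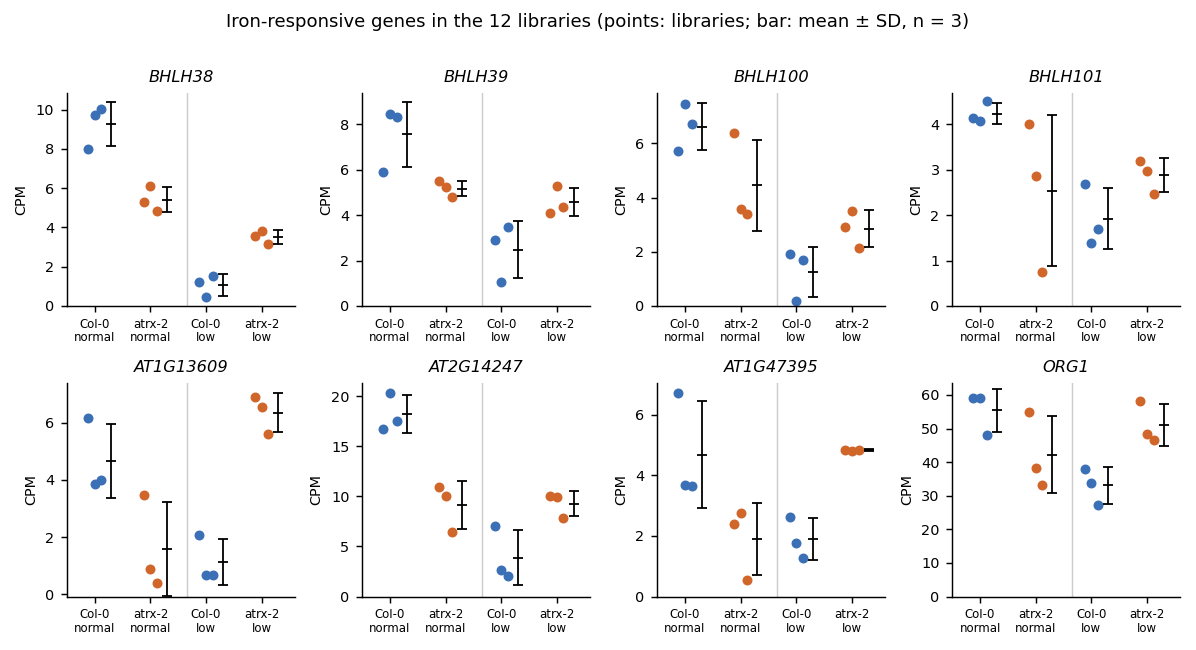
CPM of 8 iron-responsive genes in each of the 12 libraries (points; blue Col-0, orange atrx-2), under normal light on the left and low light on the right of each panel, with mean ± SD of 3 libraries as bars. BHLH38, BHLH39, AT1G13609, AT2G14247 and AT1G47395 show the crossing pattern, atrx-2 below Col-0 under normal light and above it under low light, without overlap at either level. Of the genotype differences of these genes at single light levels, only that of BHLH38 under low light was called.

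Every other interaction value in the following paragraphs missed the threshold over all genes, with edgeR adjusted p of 0.545 or more; a 95% interval that leaves out 0 stands for an unadjusted p under 0.05 in the same fit. At an unadjusted p under 0.05 there were 915 genes (4.4%), of which 502 (2.42%) had a positive and 413 (1.99%) a negative interaction. Among the genes said below to cross or change order between light levels, none had a called genotype difference at either level.

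The other 3 subgroup Ib genes had positive values too, so that all 4 were at an unadjusted p under 0.05. BHLH39, the neighbour of BHLH38 on chromosome 3, stood at 5.91, 8.46 and 8.30 CPM in Col-0 and 5.49, 5.23 and 4.80 CPM in atrx-2 under normal light, and at 2.91, 1.05 and 3.48 CPM against 4.1, 5.26 and 4.37 CPM under low light. Its genotypes did not overlap at either light level and changed order between them. Neither genotype difference was called (edgeR adjusted p = 0.554 under normal and 0.547 under low light). The interaction was log2 1.45 ± 0.37 SE (95% interval 0.65 to 2.24), and the fall under low light was called in Col-0 (log2 -1.63, adjusted p = 0.000338) but not in atrx-2 (log2 -0.18, adjusted p = 0.623).

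BHLH100 stood at 5.71, 7.46 and 6.71 CPM in Col-0 and 6.40, 3.57 and 3.40 CPM in atrx-2 under normal light. Low light gave 1.90, 0.198 and 1.70 CPM in Col-0 and 2.91, 3.51 and 2.14 CPM in atrx-2. The genotypes overlapped under normal light, through atrx-2 library 1, and separated under low light. Its interaction was log2 1.72 ± 0.56 SE (95% interval 0.52 to 2.92), and it fell under low light in Col-0 (log2 -2.38, adjusted p = 0.000464).

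BHLH101 stood at 4.13, 4.06 and 4.5 CPM in Col-0 and 4.01, 2.85 and 0.749 CPM in atrx-2 under normal light, and at 2.68, 1.38 and 1.70 CPM against 3.19, 2.97 and 2.47 CPM under low light. The genotypes separated under normal light and overlapped under low light, and atrx-2 library 3 was far below the other two of its group. BHLH101 had an interaction of log2 1.29 ± 0.55 SE (95% interval 0.11 to 2.47).

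The crossing pattern was also seen in 3 iron-responsive genes outside the iron list, part of a set of 12 such genes chosen after their values were seen. AT1G13609, a defensin-like peptide gene on chromosome 1 from 4662698 to 4663253, stood at 6.16, 3.84 and 4 CPM in Col-0 and 3.45, 0.88 and 0.4 CPM in atrx-2 under normal light. Under low light it stood at 2.07, 0.659 and 0.679 CPM in Col-0 and 6.90, 6.54 and 5.6 CPM in atrx-2. The genotypes did not overlap at either level, though neither difference was called (edgeR adjusted p = 0.432 under normal and 0.19 under low light). Under normal light atrx-2 library 1 was well above libraries 2 and 3. The interaction was log2 3.95 ± 0.73 SE (95% interval 2.40 to 5.51), and without that library it was 5.25 and passed the threshold (edgeR adjusted p = 0.00235).

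AT1G13609 fell in Col-0 under low light (log2 -1.95, adjusted p = 0.0119) and rose in atrx-2 (4-fold, adjusted p = 0.00582). AT1G47395, one of the IRON MAN peptide genes, on chromosome 1 from 17382998 to 17383830, did likewise: it fell in Col-0 (log2 -1.26, adjusted p = 0.0250) and rose in atrx-2 (log2 1.35, adjusted p = 0.0153). Opposite called light responses were found in 3 of the 20783 genes (0.0144%), against 5179 (24.9%) called in the same direction in both genotypes. The third gene was A/N-InvD, a neutral invertase gene, which rose in Col-0 (log2 0.28, adjusted p = 0.0301) and fell in atrx-2 (log2 -0.26, adjusted p = 0.0441).

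AT1G47395 stood at 6.72, 3.67 and 3.65 CPM in Col-0 and 2.39, 2.74 and 0.549 CPM in atrx-2 under normal light, and at 2.63, 1.78 and 1.27 CPM against 4.84, 4.79 and 4.84 CPM under low light. The atrx-2 libraries were below all Col-0 libraries under normal light and above them under low light. Its interaction was log2 2.61 ± 0.56 SE (95% interval 1.42 to 3.80), and DESeq2 called it (adjusted p = 0.0334). Its neighbour AT1G47400, of the same peptide family, had an interaction of log2 2.03 ± 0.65 SE (95% interval 0.64 to 3.41) at low counts, 6 to 47 per library, and of 3.17 without Col-0 library 1 under low light (edgeR adjusted p = 0.272). Of their 50-base windows, 1.28% and 1.37% occur elsewhere. The estimated counts of each were not whole in 10 of the 12 libraries, so some ambiguous reads were divided at both loci.

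AT2G14247, an uncharacterized iron-responsive gene on chromosome 2 from 6034282 to 6035375, stood at 16.8, 20.3 and 17.5 CPM in Col-0 and 11.0, 10.0 and 6.39 CPM in atrx-2 under normal light. Low light gave 6.99, 2.64 and 2.04 CPM in Col-0 and 10.0, 9.92 and 7.88 CPM in atrx-2. It fell 4.45-fold in Col-0 (log2 -2.15, adjusted p = 7.78e-05), while the difference in atrx-2 was log2 0.02 (adjusted p = 0.971). For AT2G14247 the interaction was log2 2.17 ± 0.41 SE (95% interval 1.28 to 3.06). Without Col-0 library 1 under low light, the highest of its group, it was 2.96 and passed the threshold (edgeR adjusted p = 0.00458).

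ORG1 (AT5G53450), named like BHLH38 and BHLH39 for its response to the factor OBP3, stood at 59.0, 59.1 and 48.1 CPM in Col-0 and 55.0, 38.3 and 33.1 CPM in atrx-2 under normal light. The low-light values were 38.1, 33.8 and 27.3 CPM in Col-0 and 58.2, 48.5 and 46.6 CPM in atrx-2. The genotypes overlapped under normal light and separated under low light. With many more reads than the genes above, its interaction was smaller, log2 1.01 ± 0.23 SE (95% interval 0.51 to 1.51).

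Of the 24 genes on the iron homeostasis list, 22 were tested: 1 was called, and the list divided into 13 positive and 9 negative values. An unadjusted p under 0.05 was found in 7, all positive, where 2.42% of all genes had a positive value at that level. This list was itself chosen with earlier results of these data known, so its counts are a description and not independent support. Its median was log2 0.13 against -0.0017 over all tested genes, and the members spread widely. atrx-2 lay below all Col-0 libraries under normal light in 6 of the 22, where 6.62% of all genes did so, and above all of them under low light in 5, where 6.22% did. Both held for 2, BHLH38 and BHLH39, where 0.197% of all genes, 41 in number, crossed in this direction and 0.154% in the other. Of the 11 tested genes among the 12 added after seeing values, 9 were positive and 7 had an unadjusted p under 0.05, but their choice fixed this in part.

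**Figure D2:**
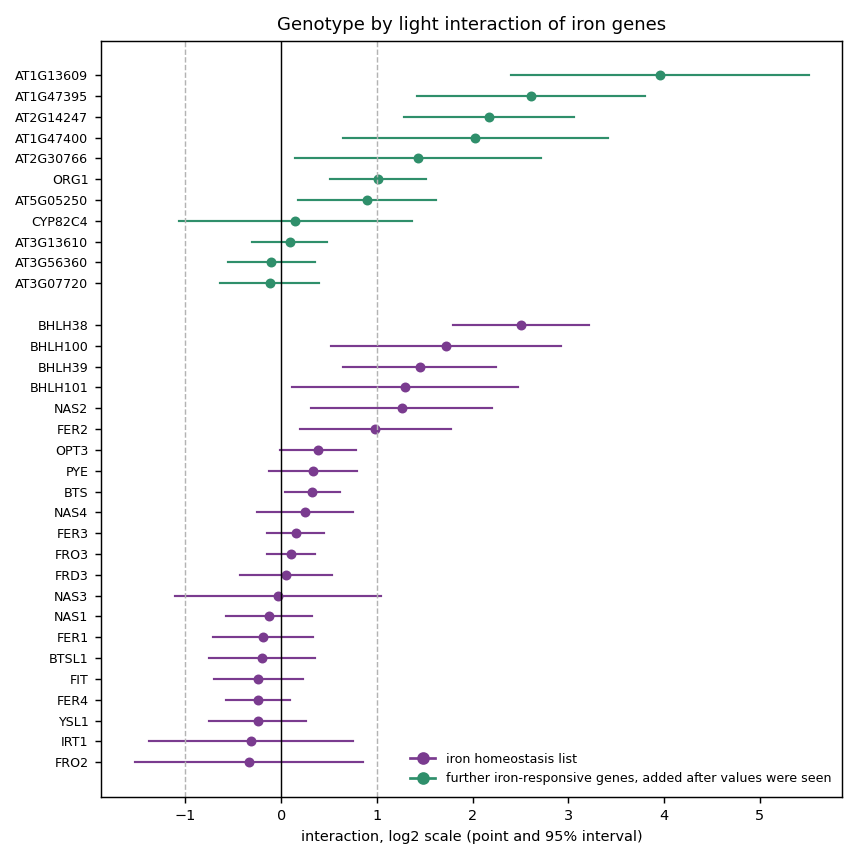
Interaction value (log2, point) and 95% interval (line) of the 22 tested genes of the iron homeostasis list (purple) and of 11 iron-responsive genes added after their values were seen (green); dashed lines mark 1 log2 unit, a 2-fold difference. On the list, the 4 subgroup Ib genes and NAS2 lie above 1, while IRT1, FRO2 and FIT have negative values with intervals that include 0.

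Beyond the subgroup Ib factors, 3 list members had an unadjusted p under 0.05. NAS2, which makes the metal chelator nicotianamine, had an interaction of log2 1.26 ± 0.44 SE (95% interval 0.31 to 2.2) and rose under low light in atrx-2 (log2 2.2, adjusted p = 7.94e-05) and in Col-0 (log2 0.94, adjusted p = 0.0284). FER2, the ferritin known from seeds, had 0.98 ± 0.37 SE (95% interval 0.20 to 1.77) at 20 to 56 counts per library. BTS stood at 76.9, 73.5 and 75.5 CPM in Col-0 and 87.1, 88.4 and 91.5 CPM in atrx-2 under low light, without overlap, and its genotypes overlapped under normal light. Its interaction was log2 0.32 ± 0.13 SE (95% interval 0.04 to 0.61), and its fall under low light was called in Col-0 (log2 -0.52, adjusted p = 0.000678).

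OPT3, which loads iron into the phloem, had an interaction of log2 0.38 (95% interval -0.01 to 0.78), and PYE, a bHLH repressor of iron genes, 0.33 (95% interval -0.13 to 0.80). Values closer to 0 were found for FRO3, a mitochondrial ferric reductase, at 0.10 (95% interval -0.15 to 0.35) and FRD3, a citrate exporter, at 0.05 (95% interval -0.43 to 0.53). The leaf iron store gene FER1 was higher in every atrx-2 library than in every Col-0 library at both light levels, with an interaction of log2 -0.19 (95% interval -0.71 to 0.33).

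The root uptake genes had intervals that include 0. FIT had an interaction of log2 -0.24 (95% interval -0.70 to 0.22), and it rose under low light in both Col-0 (log2 0.71, adjusted p = 0.00244) and atrx-2 (log2 0.47, adjusted p = 0.0284). IRT1 stood at 60.0, 55.8 and 57.0 CPM in Col-0 and 51.0, 50.8 and 46.3 CPM in atrx-2 under normal light. Under low light it stood at 118, 67.2 and 169 CPM in Col-0 and 136, 70.8 and 36.9 CPM in atrx-2. The low-light libraries thus spread widely within each genotype and overlapped, while the normal-light libraries were tight. Its interaction was log2 -0.32 with a 95% interval of -1.38 to 0.75.

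FRO2 showed the same spread, at 58.2, 29.9 and 85.3 CPM in Col-0 and 82.6, 36.2 and 19.5 CPM in atrx-2 under low light, with an interaction of log2 -0.34 (95% interval -1.53 to 0.86). CYP82C4, which makes an iron-mobilising coumarin, stood at 49.9, 25.8 and 61.8 CPM against 79.6, 30.7 and 17.0 CPM. In all 3 genes, Col-0 library 2 was the lowest of its low-light group and atrx-2 library 1 the highest and library 3 the lowest of theirs. Without low-light atrx-2 library 1 the interactions were log2 -0.92 for IRT1 and -1.08 for FRO2, each with an edgeR adjusted p of 1.

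Root marker genes were looked at beside the iron genes because the uptake system is in roots. All 12 root markers were detected, and they summed to 2289 to 2372 CPM in Col-0 and 1901 to 2301 CPM in atrx-2 under normal light, and to 1906 to 2587 CPM and 2167 to 2547 CPM under low light. None had an interaction at an unadjusted p under 0.05 and 9 of 12 were positive, with a median of log2 0.18 and a range from -0.06 to 0.44. Their part in the iron values was not tested. With the ribosomal RNA share as a covariate, the BHLH38 interaction was log2 2.52 (edgeR adjusted p = 0.108).

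Against these genes, the light response as a whole was much alike in the 2 genotypes. From normal to low light, 7113 genes (34.2%) were called in Col-0 and 6870 (33.1%) in atrx-2, on separate libraries. Across the 19251 tested genes of at least 1 CPM, the log2 light responses had Pearson's r of 0.88 and Spearman's rho of 0.83, as a description, since genes are not independent replicates. Over all tested genes the standard deviation of the light response was 0.63 in Col-0 and 0.63 in atrx-2.

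**Figure D3:**
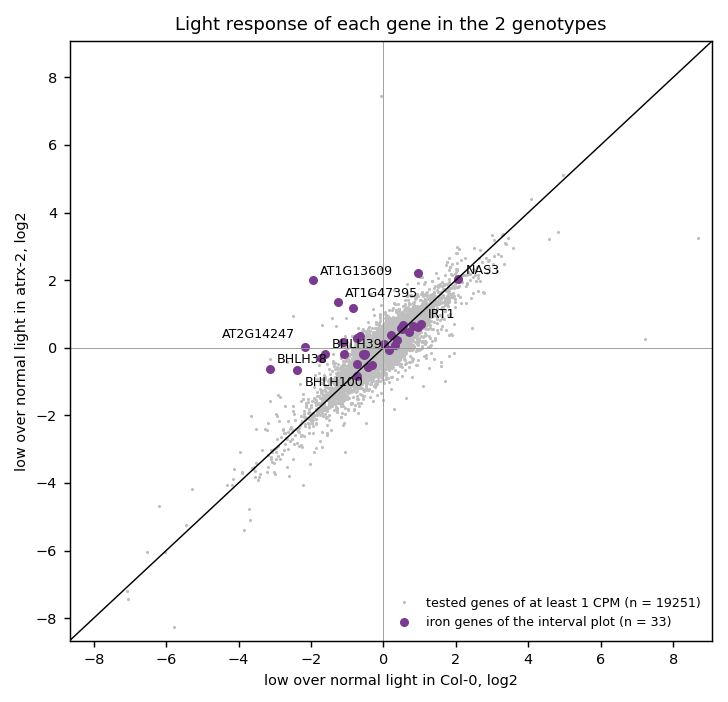
Low over normal light (log2) in atrx-2 against the same in Col-0 for 19251 tested genes of at least 1 CPM (grey) and 33 iron genes (purple); the diagonal marks equal responses and distance above it a positive interaction. BHLH38, AT2G14247, AT1G13609 and AT1G47395 lie above the diagonal, while IRT1 and NAS3 lie near it.

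For the 10 genes with the smallest light p in Col-0, 5 risers and 5 fallers, the interaction ran from log2 -0.32 to 0.11, and 2 of them, AT1G70820 and LHCB1.4, had an unadjusted p under 0.05. AT1G70820 rose by log2 3.37 in Col-0 and 3.06 in atrx-2, with an interaction of -0.32 (95% interval -0.62 to -0.02). PHS2, a cytosolic glucan phosphorylase of starch breakdown, rose by log2 2.63 in Col-0 and 2.66 in atrx-2, with an interaction of 0.02 (95% interval -0.22 to 0.27). HSP17.4, a small heat shock protein gene, stood at 34.6 to 44.3 CPM in Col-0 and 29.1 to 38.7 CPM in atrx-2 under normal light and at 0.339 to 0.727 CPM and 0.405 to 0.684 CPM under low light. Its log2 light response was -6.02 in Col-0 and -6.03 in atrx-2. The morning clock gene LHY fell by log2 2.43 in Col-0 and 2.58 in atrx-2, with an interaction of -0.15 (95% interval -0.45 to 0.15). Outside these 10, genes with a large light response could have larger values, such as BHLH38 (log2 -3.13 in Col-0, interaction 2.51) and RPP4 (log2 2.67 in Col-0, interaction -0.69).

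By list, 0 of the 22 tested heat shock genes had an interaction at an unadjusted p under 0.05, and their median was log2 -0.0024 while their median light response was -1.27 in Col-0 and -1.39 in atrx-2. The 13 starch genes had 0 such members, a median interaction of -0.03 and median light responses of 1.60 and 1.52. Among 13 Rubisco and Calvin cycle genes, 11 were called as falling under low light in each genotype. Over all 20783 tested genes, 3664 were so called in Col-0 and 3517 in atrx-2. Of the 13, 0 had an interaction at an unadjusted p under 0.05 (median -0.06). With 4.4% of all tested genes at that level, a count of 0 in lists of this size says little. Intervals lay within 1 log2 unit of 0 for 14 of the 22 heat shock genes, all 13 starch genes and all 13 Rubisco and Calvin cycle genes.

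Of the 20 light-harvesting antenna genes, 18 had a negative interaction, where 10465 of all 20783 tested genes did, with a median of log2 -0.12, and all 20 intervals lay within 1 log2 unit of 0. Negative values were also the more frequent among Rubisco and Calvin cycle genes (11 of 13) and photoreceptor and light signalling genes (21 of 29). The same held for Polycomb genes and antagonists (18 of 23) and sugar starvation genes (12 of 15). It held too for PRC2 targets (11 of 14) and flowering time genes (18 of 26). Nitrogen assimilation (6 of 8), high-light response (12 of 17), salicylic acid and defence (11 of 16) and jasmonate genes (12 of 18) leaned the same way. Positive values were the more frequent among H3.3 and histone chaperone genes (16 of 21), root markers (9 of 12), shade avoidance and auxin output genes (11 of 17) and cell cycle genes (14 of 22). Some lists not named here leaned too. Members of a list share the same libraries and are not independent, and these leans were not tested. LHCB1.4 stood at 447, 533 and 519.7 CPM in Col-0 and 497, 519.9 and 493 CPM in atrx-2 under normal light, and at 3896, 3684 and 3799 CPM against 3393, 2959 and 2794 CPM under low light. The genotypes overlapped under normal light, and atrx-2 was below Col-0 in every library under low light. Its interaction was log2 -0.32 ± 0.12 SE (95% interval -0.59 to -0.06), and that of LHCB1.5 -0.21 ± 0.09 SE (95% interval -0.40 to -0.01). Of their 50-base windows, 13.7% and 17.3% occur elsewhere in the genome's genes, so reads may be divided among LHCB1 copies.

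**Figure D4:**
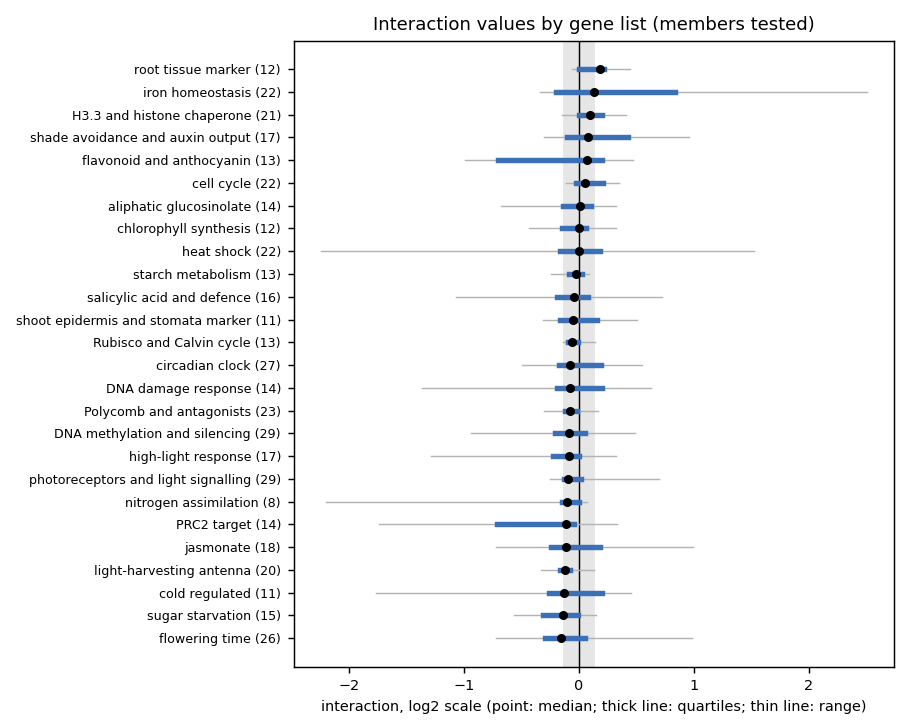
Interaction values (log2) by gene list, with the number of members tested in brackets: median (point), quartiles (thick line) and range (thin line), beside the median (vertical line) and quartiles (grey band) of all tested genes. The iron homeostasis list reaches furthest to the positive side, up to 2.51, while the starch and Rubisco lists stay close to 0.

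Outside the iron genes, 6 of the 12 positive interactions with the smallest p belonged to other loci. AT1G67105, a noncoding RNA gene on chromosome 1 from 25057479 to 25058264, stood at 16.8, 21.4 and 24.4 CPM in Col-0 and 24.4, 24.5 and 22.9 CPM in atrx-2 under normal light. Under low light it stood at 1.96, 1.05 and 1.95 CPM in Col-0 and 6.84, 6.41 and 4.46 CPM in atrx-2. The genotypes overlapped under normal light and separated under low light. It fell in both genotypes, by log2 3.66 in Col-0 and 2.03 in atrx-2, with an interaction of log2 1.63 ± 0.29 SE (95% interval 1.01 to 2.25) that DESeq2 called (adjusted p = 0.000783).

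AT1G49570, a peroxidase gene, had 0, 7 and 8 counts in Col-0 and 0 in all 3 atrx-2 libraries under normal light, and 20, 20 and 13 counts against 52, 29 and 52 under low light. The counts were higher under low light in both genotypes, and no interaction fold is given because 1 group was at 0. AT5G20820, an auxin-responsive SAUR-like gene, stood at 3.62, 2.78 and 2.99 CPM in Col-0 and 1.62, 1.6 and 1.4 CPM in atrx-2 under normal light, and at 2.96 to 3.56 CPM in Col-0 and 2.94 to 3.42 CPM in atrx-2 under low light. Its genotypes separated under normal light only, with an interaction of log2 0.97 ± 0.25 SE (95% interval 0.44 to 1.51).

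The remaining 3 were AT2G25510 (uncharacterized, log2 0.91), AT4G31020 (an alpha/beta-hydrolase gene, log2 1.3) and AT3G09925 (an Ole e 1 family gene, log2 0.56), each lower under low light in Col-0 by the light test. In all 3, every atrx-2 library was above every Col-0 library under low light. AT3G09925 showed the full crossing pattern, with atrx-2 at 11.88, 10.46 and 10.99 CPM under normal light against 13.5, 12.47 and 13.35 CPM in Col-0.

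No negative interaction was called by edgeR, with 413 at an unadjusted p under 0.05, and among the 12 genes of at least 1 CPM with the smallest p the log2 values lay between -2.13 and -0.44. Regulators of transcription were among them. CHE, a TCP factor of the circadian clock, stood at 21.1, 25.4 and 21.9 CPM in Col-0 and 26.1, 26.9 and 31.2 CPM in atrx-2 under normal light, and at 46.2, 43.4 and 44.9 CPM against 38.4, 38.7 and 40.5 CPM under low light. Its genotypes did not overlap at either level and changed order, with an interaction of log2 -0.50 ± 0.12 SE (95% interval -0.76 to -0.23). Neither genotype difference was called (edgeR adjusted p = 0.396 under normal and 0.732 under low light). CHE rose under low light in Col-0 (log2 0.98, adjusted p = 1.08e-06) and in atrx-2 (log2 0.48, adjusted p = 0.000595).

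AT3G45260, a C2H2 zinc finger gene, stood at 7.33, 8.57 and 9.27 CPM in Col-0 and 10.3, 10.5 and 12.8 CPM in atrx-2 under normal light, and at 22.8 to 23.7 CPM against 19.9 to 20.7 CPM under low light. AT2G36885, annotated as a translation initiation factor, stood at 12.1, 9.24 and 10.7 CPM against 13.8, 13.4 and 14.2 CPM under normal light and at 12, 11.9 and 9.84 CPM against 8.78, 9.18 and 8.88 CPM under low light. Both crossed without overlap, with interactions of log2 -0.61 ± 0.15 SE (95% interval -0.93 to -0.30) and -0.71 ± 0.16 SE (95% interval -1.04 to -0.37).

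A pair of NAC transcription factor genes did not overlap between genotypes under low light, although neither low-light difference was called (edgeR adjusted p = 0.19 for NAC2 and 0.446 for NAP). NAC2 stood at 16.1, 16.5 and 15.2 CPM in Col-0 and 9.29, 12 and 11.1 CPM in atrx-2 under low light, and its genotypes overlapped under normal light (interaction log2 -0.74 ± 0.17 SE, 95% interval -1.11 to -0.37). NAP, known for its part in leaf senescence, stood at 6.38, 6.85 and 7.97 CPM against 5.01, 4.12 and 5.27 CPM under low light (interaction log2 -0.79 ± 0.20 SE, 95% interval -1.21 to -0.37). NAP fell under low light in Col-0 (log2 -1.13, adjusted p = 1.97e-05) and in atrx-2 (log2 -1.92, adjusted p = 1.44e-07).

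PGL1, a 6-phosphogluconolactonase gene of the pentose phosphate pathway, was called for genotype under normal light and not under low light. It stood at 5.76, 7.74 and 9.12 CPM in Col-0 and 13.8, 12.5 and 13.3 CPM in atrx-2 under normal light, and at 18.1, 19.2 and 21.0 CPM against 21.3, 18.8 and 18.6 CPM under low light. The genotypes separated under normal light only, and the interaction was log2 -0.79 ± 0.18 SE (95% interval -1.18 to -0.40). It overlaps other genes on the opposite strand. AT2G32870, a TRAF-like gene, was the reverse case, called under low light (log2 -0.59, adjusted p = 0.00972) with an interaction of -0.53 ± 0.12 SE (95% interval -0.78 to -0.28).

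**Figure D5:**
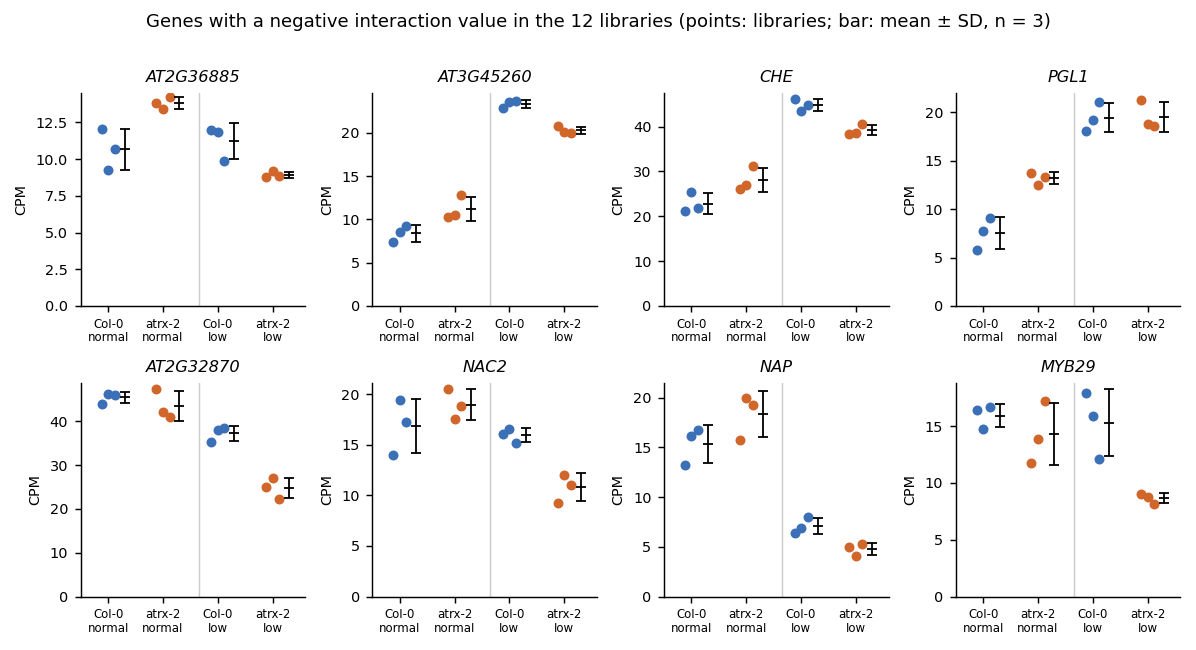
CPM of 8 genes with a negative interaction value in each of the 12 libraries (points; blue Col-0, orange atrx-2), with mean ± SD of 3 libraries as bars. AT2G36885, AT3G45260 and CHE cross without overlap, but their genotype differences were called at neither level. PGL1 separates under normal light only, and AT2G32870, NAC2, NAP and MYB29 separate under low light only. Of these 5, PGL1 and AT2G32870 were called at that level.

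The most negative value among these 12 came with a split low-light group. AT5G09672, a locus not in the annotation used, stood at 8.46, 10.2 and 10.2 CPM in Col-0 and 23.7, 33.9 and 23.9 CPM in atrx-2 under normal light, and at 28.7, 26.1 and 32.4 CPM against 10.6, 10.7 and 33.5 CPM under low light. The low-light atrx-2 library 3 was at the Col-0 level and the other two were at the normal-light Col-0 level. Over all libraries the interaction was log2 -2.13 ± 0.47 SE (95% interval -3.13 to -1.14), and -2.94 without that library, where it passed the threshold (edgeR adjusted p = 8.63e-05). The estimated counts of AT5G09672 were not whole in any of the 12 libraries, so some ambiguous reads were divided at this locus. Its windows could not be compared with the rest of the genome, because the annotation lacks it. Whether its values, the split among them, come from this locus was not tested. RPP4, a disease resistance gene, had log2 -0.69, but 29.1% of its windows occur elsewhere.

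From the other lists, few genes had an unadjusted p under 0.05, where 4.4% of all tested genes did. The sugar starvation list had 2 of 15 tested members. They were STP1, a sugar importer (log2 -0.52, 95% interval -1.001 to -0.037), and TPS8, of the trehalose phosphate synthase family (log2 -0.28, 95% interval -0.54 to -0.01). The circadian clock list had 2 of 27, CHE and the coactivator gene LNK2 (log2 -0.43, 95% interval -0.79 to -0.08). NRT2.1, the high-affinity nitrate transporter, had log2 -2.20 ± 0.66 SE (95% interval -3.61 to -0.80) at 3 to 40 counts per library. MYB29, an activator of aliphatic glucosinolate synthesis, stood at 17.9, 15.9 and 12.1 CPM in Col-0 and 9, 8.77 and 8.17 CPM in atrx-2 under low light and overlapped under normal light (interaction log2 -0.68 ± 0.21 SE, 95% interval -1.12 to -0.24). HEMA1, which catalyses the first committed step of chlorophyll and haem synthesis, had -0.43 ± 0.13 SE (95% interval -0.70 to -0.16), with atrx-2 above Col-0 in every library under normal light and below it under low light. MYBL2, a repressor of anthocyanin genes, had -0.44 ± 0.13 SE (95% interval -0.72 to -0.16). NRT2.1, MYB29, HEMA1 and MYBL2 were each the only such member of their list, of 8, 14, 12 and 13 tested. In lists of this size, counts of 1 or 2 say little.

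Among 29 genes of DNA methylation and silencing, 4 had an unadjusted p under 0.05, 1 positive and 3 negative, where 4.4% of all tested genes did. MORC6, a silencing ATPase gene, stood at 11.5, 10.7 and 10.2 CPM in Col-0 and 17.0, 16.7 and 17.1 CPM in atrx-2 under normal light, and at 9.95, 12.6 and 12.5 CPM against 13.8, 13.0 and 14.0 CPM under low light. atrx-2 was higher without overlap at both levels, by more under normal light, with an interaction of log2 -0.42 ± 0.14 SE (95% interval -0.71 to -0.12). The H3K9 demethylase gene IBM1 had -0.36 (95% interval -0.63 to -0.08), the H3K9 methyltransferase gene SUVH4 had 0.49 (95% interval 0.12 to 0.86) and MORC2 had -0.93. The list's median was -0.09. Of the 29 PRC2 targets only 14 were tested, 0 with an unadjusted p under 0.05, and the median was -0.12. Just 4 of these 14 intervals lay within 1 log2 unit of 0, so this count does not show that interactions were absent. Among 23 tested Polycomb genes and their antagonists, again 0 had an unadjusted p under 0.05, with a median of -0.08 and all 23 intervals within 1 log2 unit of 0.

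ATRX, the mutated gene, checks the labels: it kept 20, 18 and 16 counts in atrx-2 under normal light and 7, 6 and 15 under low light, against 537 to 905 in Col-0. Its interaction of log2 -0.88 ± 0.30 SE (95% interval -1.53 to -0.23) rests on those small residual counts and was -1.25 without low-light atrx-2 library 3. The orphan gene QQS stood at 1.12 to 1.67 CPM in Col-0 and 7.06 to 8.75 CPM in atrx-2 under normal light and at 0.395 to 1.62 CPM and 7.12 to 10.8 CPM under low light, with an interaction of log2 0.49 (95% interval -0.46 to 1.44) that was 1.28 without Col-0 library 1 under low light (edgeR adjusted p = 0.936). AT5G11330, which rose in atrx-2 under normal light (log2 1.62, adjusted p = 2.13e-07) and low light (log2 1.68, adjusted p = 3.14e-07), had an interaction of 0.07 (95% interval -0.21 to 0.34). FLC, the floral repressor, had -0.09 (95% interval -0.92 to 0.73) and LHP1, a reader of Polycomb marks, -0.07 (95% interval -0.33 to 0.19).

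The genotype effect was called in 14 genes (0.0674%) under normal light, 15 (0.0722%) under low light and 64 (0.308%) when averaged. Of the 22 genes called at either level, 7 were called at both, all 7 in the same direction, and 21 of the 22 had the same sign at both. The exception was BHLH38. AT3G28290 and AT3G28300, both named AT14A, are 2 of the 22 but had identical values, so they do not count as separate genes. All 50-base windows (100%) of AT3G28290, and of AT3G60950, which was called at both levels, occur elsewhere in the genome. An interaction at an unadjusted p under 0.05 was found in 9 of the 22, but these genes were picked on libraries that enter the interaction, so nothing is read from that count. Without overlap at both light levels, 316 genes (1.52%) differed in the same direction and 73 (0.351%) in opposite directions.

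How large an interaction the data leave room for depends on depth. The 95% interval lay within 1 log2 unit of 0, a 2-fold difference, for 16740 of the 20783 genes (80.5%). The share was 97.8% for the 11638 genes with a mean of at least 10 CPM, 70.2% for the 7613 genes from 1 to 10 CPM and 1.18% for those under 1 CPM. Of the 64 genes called for the averaged genotype effect, 43 had such an interval, and of the 7113 genes called for light in Col-0, 6068 did. The median SE was 0.18.

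The shares of counts from chloroplast, mitochondrial and ribosomal RNA genes gave no detectable interaction. The chloroplast share was 3.38% ± 0.04 in Col-0 and 3.05% ± 0.67 in atrx-2 under normal light, and 6.55% ± 2.11 and 6.34% ± 1.24 under low light (SD, n = 3). The difference of differences was 0.12 percentage points, with an exact two-sided permutation p of 0.925. It was 0.08 points for mitochondrial genes (exact permutation p = 0.32) and -0.18 points for 4 ribosomal RNA loci (exact permutation p = 0.955). Without low-light Col-0 library 3 the mitochondrial difference was 0.145 points, with an unadjusted exact permutation p of 0.015. Over all libraries, each p adjusted over the 3 shares was 0.955, and the 400 arrangements of genotype labels within light levels allow none below 0.005.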

How the data were processed

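RNA-seq of 12 libraries in 4 groups of 3 was used. The authors deposited estimated counts per transcript, 1 per gene, made with kallisto 0.42 on TAIR10, per the submitters' processing notes, where DESeq2 appears too. Index, fragment and strand settings: not given in the sources used here. Between 12.3% and 13.9% of the values were not whole (tolerance 1e-06), because kallisto divides ambiguous reads, and all were rounded. Names and coordinates (1-based) came from TAIR10.1, which held 32835 of 33602 loci.

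Counts were filtered with filterByExpr, scaled with TMM and tested with edgeR 4.0.16 (R 4.3.3), quasi-likelihood, 8 residual degrees of freedom, two-sided, Benjamini-Hochberg over all 20783 genes, threshold 0.05. The fit was tested on simulated data. DESeq2 1.42.0 and limma 3.58.1 (voom) were alternatives, with other scalings, filters, covariates and omissions of 1 library. Replicate pairs differed by more than sampling noise (chi-square 6.04 to 29.4 per gene), so all libraries were kept.

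The members and the 28 gene lists were chosen with earlier results of these data known. Named genes are the called gene, the 12 smallest p in each direction with a group mean of at least 1 CPM, up to 3 members per list at unadjusted p under 0.05, ATRX, FLC, LHP1 and QQS, the strongest averaged genotype and light genes, and 6 crossing genes. MORC2, the further members of the iron list and 12 further iron-responsive genes were named after their values were seen.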

Additional observations from a re-analysis of the deposited data

Results flagged for a closer look

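The genotype effect on BHLH38 differed between the light levels in the main fit, by the test of the interaction itself. The value was log2 2.51 (edgeR adjusted p = 0.0461, range over the alternatives 7.73e-08 to 0.249). It missed the threshold in 14 of the 24 alternatives. atrx-2 was below Col-0 under normal light, where the difference was not called (edgeR adjusted p = 0.241), and above it under low light. The BHLH38 interaction was the only value of the report marked in this way.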

How the results depend on the processing

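The count of interaction calls was 1. It was 3 with DESeq2, which added AT1G47395 and AT1G67105, and 0 with limma-voom, with a filter of 5 CPM, with the ribosomal RNA share as covariate and with a replicate block over all libraries or within light levels. It was 1 with median-ratio, upper-quartile or total scaling, without a filter and without organelle genes, and 1 with robust edgeR, an alternative added after seeing the data. Without single libraries it ran from 0 to 2, and AT1G13609, AT2G14247, AT5G09672 or AT2G07751 was called in 1 such fit each. BHLH38 kept its direction throughout, with an adjusted p of 0.0803 and 0.184 in the replicate block fits, 0.113 with voom and 0.0534 with the 5 CPM filter. Same-numbered libraries had correlated deviations of -0.147 to 0.174, not all over 0.1 in any pair of groups, and the labels give no shared source, so the numbers were not taken to pair the samples. As a hint of the contrary, each library correlated best with its own number between the genotypes under low light (0.0941 to 0.145) and between the light levels in Col-0 (0.0422 to 0.063), but not in the other 4 pairs of groups. The ribosomal share turned to 0.122 on the log2 scale. Leaving out single libraries, the difference in share ran from -0.742 to 1.3, from 0.0437 to 0.145 and from -1.67 to 1.66 points for chloroplast, mitochondrial and ribosomal RNA genes; the mitochondrial value of 0.145, without low-light Col-0 library 3, had an exact permutation p of 0.015. The causes were not tested. Of 2122 single-gene values under alternatives, 2103 stayed on their side of the threshold, 5 passed it newly and 14 lost it, all for BHLH38. The sign was opposite to the reported one in 69 values of 21 genes, all uncalled (smallest adjusted p 0.94) and with a reported size of at most log2 0.34, among them FLC, HSP17.4, CYP82C4, NAS3, IRT1 and AT5G11330. Depth limits genes under 1 CPM most.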
